A study of Schizosaccharomyces pombe with 9 samples.

Results

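The comparison described here set fission yeast cells that lack *ecl3* against wild-type cells in unstressed growth. It used the 3 *ecl3*Δ libraries and the 3 wild-type (WT) libraries, 6 of the 9 RNA-seq libraries in the series, chosen by their genotype labels. The other 3 libraries, of a strain lacking *ecl1*, *ecl2* and *ecl3* together, were left out of the normalization and the test. Both strains were *Schizosaccharomyces pombe* of the h− mating type and were sampled in log phase in the rich medium YES at 30 °C. In the *ecl3*Δ strain the coding sequence of *ecl3* was replaced with the drug-resistance cassette kanMX (genotype *ecl3*Δ::kanMX), and the WT strain carried no *ecl* deletion. Both strains also carried the auxotrophic alleles *leu1-32*, *ura4-D18* and *his3-D1* and an *ade6* allele, which was *ade6-m216* in the WT. The study's strain list does not say which *ade6* allele the *ecl3*Δ strain had. Each genotype was a single strain from which the replicate cultures were grown, so an effect of *ecl3* and any other difference between these isolates cannot be told apart.

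The Ecl proteins are small paralogs with cysteines placed to bind zinc, named extenders of chronological lifespan because extra copies of their genes prolong the viability of nondividing cells. The 3 genes respond to different nutrient shortages, and *ecl3* is the family member that is switched on by phosphate starvation. The gene lies on chromosome II beside *prt2*, a regulatory long noncoding RNA (lncRNA) gene at the edge of a cluster that also holds *pho84*, *prt* and *pho1*, genes of the phosphate acquisition (*PHO*) regulon.

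The deposited counts summed to 34871124, 27689634 and 24877150 reads in *ecl3*Δ replicates 1, 2 and 3, against 26210046, 23254907 and 34857589 in WT replicates 1, 2 and 3. Transcripts of the cytosolic ribosomal proteins took 28.2, 28.1 and 29.6% of the counts in *ecl3*Δ and 27.5, 28.7 and 28.9% in the WT. The shares of lncRNAs were 1.10, 1.23 and 1.14% in *ecl3*Δ and 1.21, 1.22 and 1.24% in the WT. The count at *ura4*, whose coding sequence is missing from the shared *ura4-D18* background, was 0 in all 6 libraries. Of the M-cell genes, the M-factor exporter gene *mam1* had normalized read counts of 1732, 3160 and 2135 in *ecl3*Δ and 2926, 2500 and 2818 in the WT. All 4 P-cell markers were also detected in these h− cultures. *map2*, the P-factor gene, had 198, 148 and 148 in *ecl3*Δ and 157, 134 and 99.4 in the WT, and *sxa1*, a protease gene listed with them, had 13818, 23206 and 15425 in *ecl3*Δ and 20194, 21375 and 21424 in the WT.

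Reads counted at *ecl3* (SPBC8E4.12c) were examined first. The raw count was 0 in each of the 3 *ecl3*Δ libraries and 23, 15 and 42 in the 3 WT libraries. The groups did not overlap, and *ecl3* RNA was at least 27.3-fold lower in *ecl3*Δ, taking 3 counts in the 3 *ecl3*Δ libraries combined as the detection floor. The adjusted p of *ecl3* was 0.824 in the edgeR quasi-likelihood test of the 6 libraries and 0.0148 when *ecl3*Δ replicate 2 was left out, whereas the DESeq2 adjusted p on the same 6 libraries was 0.00047. The WT level of *ecl3* also stood under the minimum of 100 normalized reads set for calling a gene.

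For the paralogs, the difference between the strains was no larger than the spread of the cultures. *ecl1* (SPCC70.12c), the founding member of the family, had normalized read counts of 624, 462 and 545 in *ecl3*Δ, against 511, 484 and 395 in the WT. These ranges overlapped, with a log2 fold change of 0.23 ± 0.15 (SE, n = 3 each) and an edgeR adjusted p of 0.824. *ecl2* (SPBP35G2.16c) had 1281, 1931 and 1354 in *ecl3*Δ, against 1725, 1511 and 1480 in the WT, a log2 fold change of -0.05 ± 0.15. *ecl3*Δ replicate 2 had the highest *ecl2* value of the 6 libraries and replicate 1 the lowest.

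None of the genes next to the deletion passed the test. The adjacent lncRNA gene *prt2* had normalized read counts of 967, 1256 and 959 in *ecl3*Δ and 1007, 945 and 927 in the WT. *pho84*, which encodes the inorganic phosphate transporter, had 27554, 33894 and 30870 in *ecl3*Δ and 34652, 31929 and 30560 in the WT. For both genes the groups overlapped, and the log2 fold changes were 0.14 ± 0.11 for *prt2* and -0.07 ± 0.08 for *pho84*. The *prt* lncRNA (nc-pho1 in the annotation), whose transcription represses *pho1*, differed in rank: it had 110, 76.8 and 112 in *ecl3*Δ, all below the 138, 123 and 153 of the WT. Its log2 fold change of -0.47 ± 0.19 had an edgeR adjusted p of 0.824. *pho1* itself, which encodes the cell-surface acid phosphatase, had 27325, 33989 and 31014 in *ecl3*Δ and 31953, 30947 and 27706 in the WT, a log2 fold change of 0.03 ± 0.09. The third *PHO* regulon gene, *tgp1*, a glycerophosphodiester transporter gene outside this cluster, stood at -0.12 ± 0.17. On the other side of *ecl3*, the lncRNA genes SPNCRNA.1693, SPNCRNA.1694 and SPNCRNA.117 had log2 fold changes of 0.29, -0.14 and 0.48, and for SPNCRNA.117 the lowest *ecl3*Δ value (36.9) equalled the highest WT value to 3 digits.

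Across the genome, 0 of 6221 genes kept passed an adjusted p of 0.05 in the edgeR quasi-likelihood test, a two-sided test fitted to the 6 libraries. Of these genes 4989 were coding, and 0 of them (a background of 0%) met the call used here, which also asks for a 2-fold change and at least 100 normalized reads on average in the higher strain. The smallest adjusted p over all genes was 0.824. At an unadjusted p under 0.05 there were 101 coding genes on the higher side and 101 on the lower side (2.02% each way). Scaling by total counts only moved that split to 68 higher and 144 lower. Over the 4827 coding genes with a mean of at least 100 in the higher strain, the median absolute log2 fold change was 0.064 and the 90th percentile was 0.20, beside a median SE of 0.075. Of these 4827 genes, 3 on each side reached a 2-fold estimate, and none of the 6 was called.

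Rank was used to list the genes for which all *ecl3*Δ cultures lay on the same side of the WT. All 3 *ecl3*Δ values lay above all 3 WT values for 191 coding genes (3.83%), and all lay below for 275 (5.51%). The smallest two-sided p that an exact permutation test reaches with 3 libraries against 3 is 0.1. With no strain difference, a share of about 0.1 of genes would separate in one direction or the other. The shares above together did not exceed that, so these counts are descriptive and show no excess of separated genes. In such cultures, fewer cells that express a gene and less of its RNA per cell cannot be told apart.

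The 8 genes with the smallest p among those lying above the WT all encode cytosolic ribosomal proteins. *rpl3702*, which encodes eL37 of the large subunit, had normalized read counts of 31807, 29074 and 27521 in *ecl3*Δ and 24159, 25482 and 23285 in the WT. Its log2 fold change was 0.28 ± 0.07. *rpl1602*, which encodes uL13, had the largest difference of the 8, with 55572, 42259 and 36321 in *ecl3*Δ and 29225, 32476 and 25835 in the WT. *ecl3*Δ replicate 1 was the highest library for this gene, and the log2 fold change was 0.62 ± 0.15. *rps1002* and *rps001*, small-subunit genes, stood at 0.39 ± 0.10 and 0.48 ± 0.13, and *rpl13*, *rpl15*, *rps2602* and *rpp102* between 0.15 and 0.28. Most ribosomal protein genes of fission yeast have a paralog, but 5.22% of the 51-base windows of *rpl3702* and 0% of those of the other 7 genes recur elsewhere in the genome. The edgeR adjusted p was 0.824 for each of the 8.

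The genes with the smallest p among those lying below the WT had mixed functions. *uba3*, which encodes the catalytic subunit of the NEDD8-activating enzyme, had 1648, 1739 and 1640 in *ecl3*Δ and 2059, 2090 and 1916 in the WT, a log2 fold change of -0.27 ± 0.06. *apc2*, which encodes the cullin subunit of the anaphase-promoting complex, had 554, 616 and 639 in *ecl3*Δ and 741, 771 and 741 in the WT, or -0.32 ± 0.08. Both genes were picked for a small p and no overlap, so close replicates and a gap between the strains follow from that choice. *tbp1*, the gene of the TATA-binding protein, had 7859, 7984 and 8102 in *ecl3*Δ and 9072, 8845 and 8994 in the WT, or -0.17 ± 0.05. The stress-induced gene *rds1* had 3389, 3451 and 2808 in *ecl3*Δ and 4299, 4279 and 3760 in the WT, or -0.35 ± 0.09. *ypa2*, a phosphatase 2A activator gene, *gpc1*, a transporter gene, and *aes1* had log2 fold changes between -0.35 and -0.21. The edgeR adjusted p was 0.824 for each of these genes too.

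**Figure D1:**
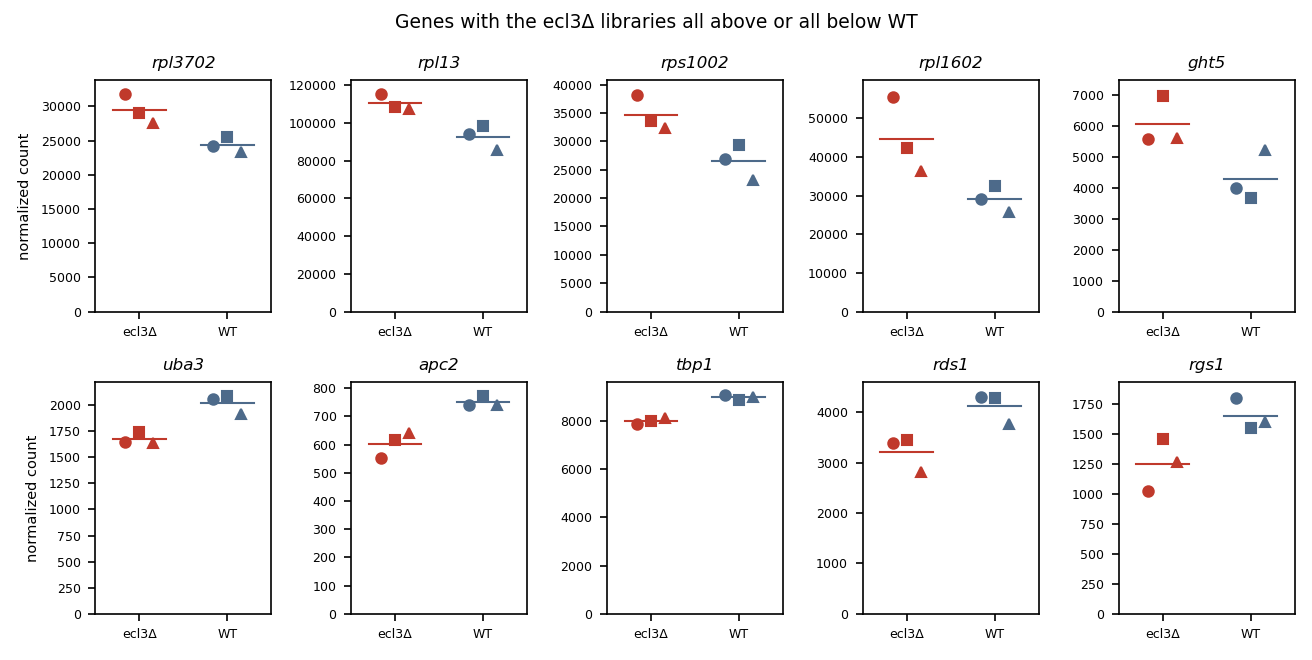
Normalized read counts on linear axes that start at 0, for 10 genes whose *ecl3*Δ libraries (red, left) all lay above or all below the WT libraries (blue, right). Circles, squares and triangles are replicates 1, 2 and 3 and the line is the mean; *rpl1602* shows the widest gap of the upper group of ribosomal protein genes, and *tbp1* a narrow one with tight replicates.

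Gene groups were then described by counts and medians, without a test of the group. Over all coding genes 2479 had a log2 fold change above 0 and 2510 one below, with a median of -0.00054, and these serve as the background. For members lying above or below all WT libraries, the background is 3.83% and 5.51% of coding genes. Cytosolic ribosomal protein genes had 103 of 144 above 0 with a median of 0.02. Above all WT libraries lay 16 of the 144 (11.1%), whereas 0 lay below. The split of signs was 74 to 70 under scaling by total counts only, when 15 lay above and 0 below, so the sign count of this group rests on the scaling. Ribosome assembly genes, which process ribosomal RNA and build the subunits, had 94 of 98 above 0 and a median of 0.14, but only 1 of them, *nan1*, lay above the WT in all cultures. *nan1*, which encodes a U3 snoRNP-associated protein, had 6403, 5565 and 5987 in *ecl3*Δ and 5405, 5194 and 5007 in the WT. Genes of RNA polymerases I and III had 24 of 31 above 0. Of this group 2 lay below all WT libraries (6.45%, near the 5.51% of all coding genes). They were *maf1*, the gene of an RNA polymerase III inhibitor, at 385, 394 and 418 in *ecl3*Δ and 441, 496 and 475 in the WT, and *eta2*, a termination factor gene, at -0.36 ± 0.15.

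Other groups tied to growth leaned the same way by small amounts. Translation factor genes had 43 of 56 above 0 (median 0.04), aminoacyl tRNA synthetase genes 28 of 34 (median 0.04) and amino acid synthesis genes 41 of 49 (median 0.04). WT replicate 1 alone had medians 0.05 and 0.06 above the WT mean for synthetase and amino acid synthesis genes, no smaller than these leans. For translation factor genes the medians of the WT libraries lay between -0.01 and 0.01. Glycolysis and fermentation genes had 15 of 17 above 0, a median of 0.10 and 4 genes above all WT libraries (23.5%, against 3.83% of coding genes). Among those 4, *gpm1*, the phosphoglycerate mutase gene, had 119367, 85948 and 88597 in *ecl3*Δ and 78674, 77732 and 65684 in the WT, a log2 fold change of 0.40 ± 0.13. *pdc101*, *fba1* and *hxk2*, which encode pyruvate decarboxylase, aldolase and hexokinase, stood at 0.25 ± 0.09, 0.23 ± 0.09 and 0.18 ± 0.07. By culture, the medians of the glycolysis and fermentation group were 0.24, 0.09 and 0.04 in *ecl3*Δ replicates 1, 2 and 3. In WT replicates 1, 2 and 3 they were 0.07, 0.0039 and -0.08, so *ecl3*Δ replicate 3 lay inside the WT range. The main hexose transporter gene, *ght5*, had 5591, 6962 and 5623 in *ecl3*Δ and 3983, 3661 and 5215 in the WT, or 0.50 ± 0.14. WT replicate 3 came close to the *ecl3*Δ values for *ght5*, and 29.3% of the 51-base windows of this gene recur elsewhere in the genome. The thioredoxin peroxidase gene *tpx1* had 31742, 28051 and 28116 in *ecl3*Δ and 25056, 26132 and 22450 in the WT, or 0.26 ± 0.08. None of these genes passed the edgeR adjusted p.

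Groups for protein turnover and respiration leaned lower. Proteasome genes had 40 of 44 below 0, a median of -0.07 and 7 genes below all WT libraries (15.9%, against 5.51% of coding genes). One of these, *rpn10*, a subunit that receives ubiquitin chains, had 4668, 4905 and 4991 in *ecl3*Δ and 5277, 5248 and 5144 in the WT, or -0.11 ± 0.05. Autophagy genes had 24 of 30 below 0 and a median of -0.11, with *atg5*, *atg7* and *atg38* (10% of the group) below the WT in all cultures. *atg5*, part of the machinery that attaches Atg8 to membranes, had 1115, 1126 and 1124 in *ecl3*Δ and 1214, 1224 and 1210 in the WT, or -0.12 ± 0.05. Genes of the respiratory chain and ATP synthase had 25 of 29 below 0 (median -0.06), mitochondrial ribosomal protein genes 49 of 75 (median -0.03) and stress response genes 17 of 26 (median -0.10). WT replicate 1 alone had medians of -0.07 and -0.05 from the WT mean for the respiratory and mitochondrial ribosomal groups, no smaller than these leans. *ecl3*Δ replicate 3 had a median of 0.03 for the mitochondrial ribosomal group. For stress response genes the WT medians lay between -0.04 and 0.04. The glutathione peroxidase gene *gpx1*, a stress gene, had 5007, 5826 and 5021 in *ecl3*Δ and 5869, 5972 and 6207 in the WT, or -0.19 ± 0.07. Groups for copper, chaperones, TOR signaling and mitosis were split nearly evenly, with medians between -0.02 and 0.01.

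The cultures differed in how far they lay from the WT. Distance was taken as the median absolute log2 difference over the 4813 coding genes that averaged at least 100 normalized reads across the 6 libraries. *ecl3*Δ replicate 1 was 0.107, 0.131 and 0.138 from WT replicates 1, 2 and 3. *ecl3*Δ replicate 2 was 0.0771, 0.0767 and 0.0786 from them, and *ecl3*Δ replicate 3 was 0.114, 0.0972 and 0.0973. The WT libraries lay 0.0582 to 0.0951 from each other. Replicate 2 of *ecl3*Δ fell inside this range, whereas replicates 1 and 3 fell outside it. Against WT replicates 2 and 3, *ecl3*Δ replicate 3 did so only narrowly, at 0.0972 and 0.0973 beside 0.0951. Among themselves the *ecl3*Δ cultures lay 0.127 apart for replicates 1 and 2, 0.116 for replicates 2 and 3, and 0.0887 for replicates 1 and 3, within the range of their distances from the WT.

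Counting strongly different genes gave the same order. *ecl3*Δ replicate 1 differed by at least 2-fold from a WT library at 56 to 90 coding genes, replicate 2 at 3 to 12 and replicate 3 at 27 to 32, whereas pairs of WT libraries differed at 1 to 9. Replicates 1 and 2 of *ecl3*Δ differed from each other at 108 coding genes, the highest count of the 15 pairs. The SD of log2 CPM was larger among the *ecl3*Δ libraries for 3065 of the 4813 genes, with a median of 0.0919 in *ecl3*Δ and 0.0687 in the WT.

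**Figure D2:**
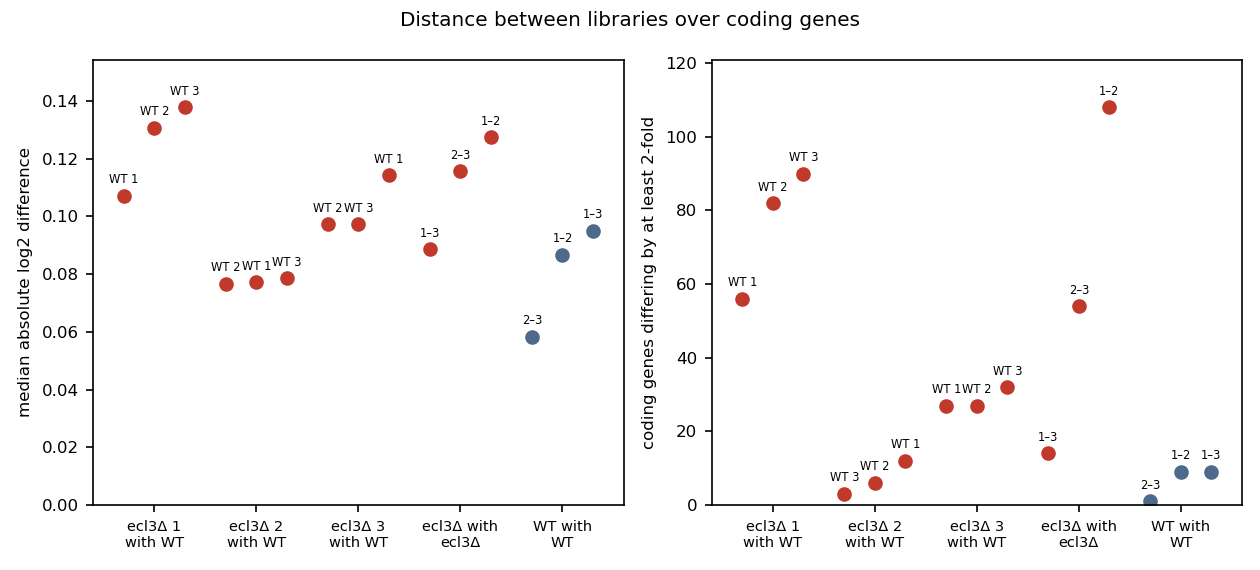
Distance of each pair of libraries over 4813 coding genes, as the median absolute log2 difference (left) and the number of genes differing by at least 2-fold (right); red points involve *ecl3*Δ, blue points are WT pairs, and the small labels give the replicates. *ecl3*Δ replicate 2 lies 0.0767 to 0.0786 from the WT, inside the WT pairs at 0.0582 to 0.0951, and replicate 1 lies farthest.

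Among genes far from the WT, replicates 1 and 3 had more on the lower side. In replicate 1, 132 coding genes lay at least 1.5-fold below the nearest WT library and 19 lay as far above. In replicate 3 these numbers were 57 below and 2 above, and in replicate 2 they were 2 below and 8 above. With no fold limit, replicate 1 was above all WT libraries at 31.6% of coding genes and below them at 35.6%, replicate 2 at 22.2% and 25.6%, and replicate 3 at 30.8% and 30.5%. These shares are the background for the counts of each culture that follow.

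Seen culture by culture, the gene groups divided into replicates 1 and 3 against replicate 2. Of the 98 ribosome assembly genes, 90 lay above all WT libraries in replicate 1, 3 in replicate 2 and 90 in replicate 3. In replicate 2, 41 of the 98 lay below all WT libraries. Their median log2 differences from the WT mean were 0.28, -0.05 and 0.20 in replicates 1, 2 and 3. *enp2*, an rRNA processing gene, shows this with 5489, 4012 and 5008 in *ecl3*Δ and 4012, 4118 and 3902 in the WT. Genes of RNA polymerases I and III had medians of 0.12, -0.06 and 0.12. Cytosolic ribosomal protein genes followed another order, with medians of -0.01, -0.02 and 0.07 and with 35, 19 and 122 of 144 above all WT libraries.

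The groups on the lower side were divided in the same manner. Autophagy genes had medians of -0.18, 0.05 and -0.16 in replicates 1, 2 and 3, and 23, 4 and 21 of the 30 lay below all WT libraries. Stress response genes had medians of -0.11, 0.03 and -0.24. Genes of cAMP and glucose sensing had medians of -0.22, 0.09 and -0.26, and proteasome genes -0.14, -0.02 and -0.06. Glucose-repressed and hexose transporter genes had medians of -0.05, 0.28 and -0.03, and here replicate 2 was the culture farthest from the WT.

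**Figure D3:**
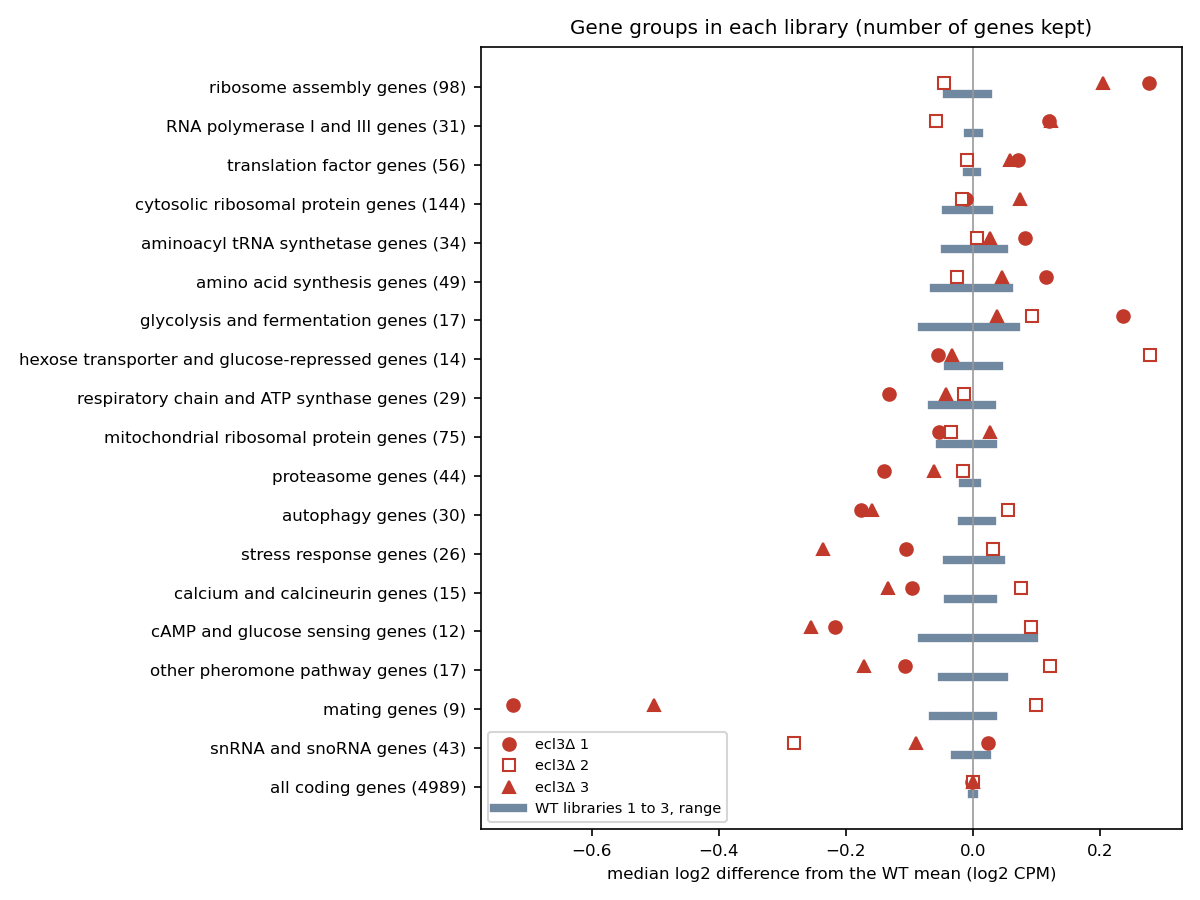
Median log2 difference from the WT mean (horizontal axis, log2 CPM) of each gene group in *ecl3*Δ replicates 1, 2 and 3 (red circle, open square, triangle), beside the range of the 3 WT libraries (blue bar); the number of genes is in brackets. Replicates 1 and 3 lie on the same side of 0 for ribosome assembly genes (0.28 and 0.20) and for mating genes (-0.72 and -0.50), and replicate 2 lies at -0.05 and 0.10.

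The mating genes that the study names for the triple deletion also showed this division. The list held 9 pheromone pathway genes, taken from the study's account of the triple deletion in comparison with these same WT libraries, so its direction here is not independent evidence. All 9 had a log2 fold change below 0, with a median of -0.35, but 0 passed the edgeR adjusted p, and only *rgs1*, the gene of a regulator of G-protein signaling, had all cultures below the WT (1029, 1462 and 1266 in *ecl3*Δ, 1803, 1551 and 1606 in the WT). All 9 lay below every WT library in replicates 1 and 3, whereas in replicate 2 there was 1 below and 4 above. *ste11*, the gene of the HMG-box activator of sexual differentiation, had 986, 3148 and 1003 in *ecl3*Δ and 2562, 2081 and 1913 in the WT. The mitogen-activated protein kinase gene *spk1* had 1252, 3355 and 1933 in *ecl3*Δ and 2878, 3200 and 3299 in the WT. *mam2*, the gene of the P-factor receptor, had 247, 937 and 440 in *ecl3*Δ and 518, 683 and 858 in the WT. For each of these 3 genes replicate 2 was the highest of all 6 libraries. Of 17 other pheromone pathway genes, 7 had a log2 fold change above 0, and the median was -0.05. Below every WT library lay 10, 0 and 9 of these 17 in *ecl3*Δ replicates 1, 2 and 3, and above every WT library lay 1, 7 and 0.

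The test was also run with each library left out in turn. Leaving out *ecl3*Δ replicate 2 was the only case with calls: 39 coding genes were called lower in *ecl3*Δ and 2 higher (0.781% and 0.04% of 4995 coding genes), with 20 noncoding genes and 1 pseudogene. By adjusted p alone, 312 coding genes were lower and 169 higher (6.25% and 3.38%). Leaving out any of the other 5 libraries gave 0 calls. Across the 39 lower genes the median log2 difference from the WT mean was -1.52, 0.37 and -1.08 in *ecl3*Δ replicates 1, 2 and 3, and -0.18, 0.05 and 0.15 in WT replicates 1, 2 and 3. The left-out culture lay above all WT libraries for 35 of the 39 genes, within the WT for 3 and below the WT for 1. The calls rest on replicates 1 and 3.

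**Figure D4:**
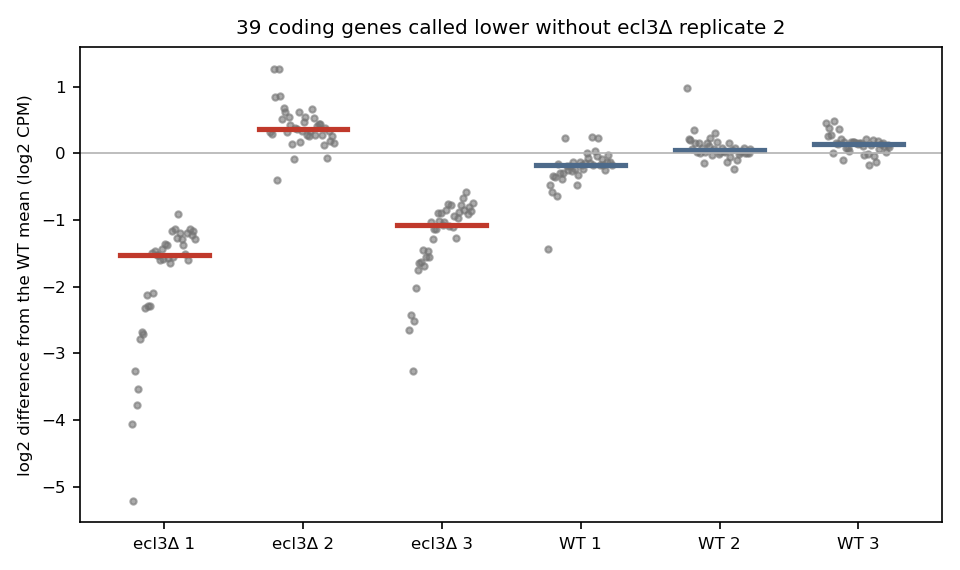
The 39 coding genes called lower when *ecl3*Δ replicate 2 was left out of the fit, as the log2 difference from the WT mean (log2 CPM) in each of the 6 libraries; each gray point is a gene and each bar a median. The medians are -1.52, 0.37 and -1.08 in *ecl3*Δ replicates 1, 2 and 3, and replicate 2 stands above the WT medians of -0.18, 0.05 and 0.15.

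Genes of calcium signaling were among these 39. *prz1* and *pmc1* here, and *cmt1*, *yhb1*, *fbp1*, *imt1*, *imt2*, *gst3* and SPBPB2B2.05 further on, were picked from the calls with their values in view. *prz1*, which encodes the transcription factor activated by the phosphatase calcineurin, had normalized read counts of 2502, 17899 and 4440 in *ecl3*Δ and 10752, 12370 and 13734 in the WT. *pmc1*, the gene of a vacuolar calcium pump, had 1439, 4768 and 1914 in *ecl3*Δ and 4101, 3278 and 3216 in the WT. The *ecl3*Δ values of both genes bracketed the WT values, 2 below and 1 above. *cmk1*, a calmodulin-dependent kinase gene, had 1012, 2753 and 1470 in *ecl3*Δ and 2203, 2600 and 2641 in the WT. Without replicate 2 the log2 fold changes were -1.83 ± 0.21, -1.08 ± 0.14 and -1.01 ± 0.15 for *prz1*, *pmc1* and *cmk1*, with edgeR adjusted p values of 0.00542, 0.00734 and 0.011. With all cultures in the fit none of the 3 passed, and of the 15 calcium and calcineurin genes 9 were below 0 with a median of -0.04. The calcium sensor gene *ncs1* had 3043, 8158 and 4768 in *ecl3*Δ and 7120, 8167 and 7990 in the WT.

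Metabolic and membrane genes in this set followed the same order of libraries. *cmt2*, a catechol O-methyltransferase gene, had 146, 3445 and 147 in *ecl3*Δ and 956, 1634 and 1852 in the WT. *cmt1*, its paralog, had 2457, 9132 and 3207 in *ecl3*Δ and 5976, 7366 and 7982 in the WT. *yhb1*, which encodes a nitric oxide dioxygenase, had 6752, 31921 and 14270 in *ecl3*Δ and 25321, 31231 and 30758 in the WT. For each of them WT replicate 1 was the lowest WT library. *fbp1*, the glucose-repressed gene of fructose bisphosphatase, had 128, 482 and 169 in *ecl3*Δ and 337, 363 and 416 in the WT. *imt1* and *imt2*, which encode mannosyltransferases for inositol sphingolipids, and *gst3*, a glutathione S-transferase gene, had log2 fold changes of -1.22, -1.22 and -1.03 without replicate 2.

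On the ribosome side the same fit passed 42 of the 98 ribosome assembly genes by adjusted p as higher and 0 as lower, with a median log2 fold change of 0.24. In the fit of all 6 libraries 0 of the 98 passed. Of the 9 mating genes 6 passed as lower without replicate 2, with *ste11* at -1.13 ± 0.12 and an edgeR adjusted p of 0.00372. Of the 144 cytosolic ribosomal protein genes 4 passed as higher (2.78%, against 3.38% of all coding genes), namely *rpl3702*, *rpl13*, *rps1002* and *rpl1602*, at log2 fold changes of 0.29, 0.26, 0.41 and 0.66. On the lower side *uba3* and *rds1* were among the genes that passed, at -0.30 and -0.41. These 6 genes are among those named above because all 3 cultures lay on the same side of the WT. The position of replicate 2 for them is therefore not independent evidence. The 2 coding genes called higher were *str1* and SPBPB2B2.05. *str1*, the gene of a siderophore-iron transporter, had 388, 140 and 260 in *ecl3*Δ and 164, 133 and 167 in the WT. SPBPB2B2.05, a glutamine amidotransferase family gene, had 130, 57 and 72.7 in *ecl3*Δ and 48, 44.3 and 34 in the WT, above the WT in every culture.

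**Figure D5:**
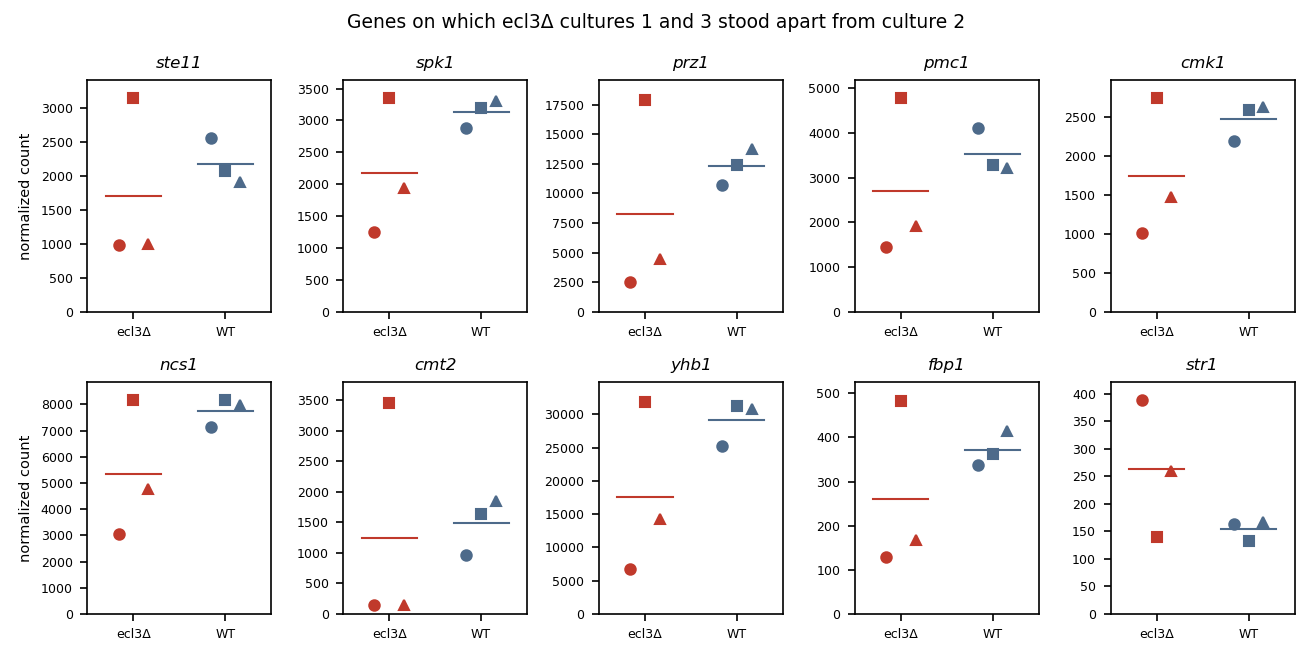
Normalized read counts on linear axes that start at 0 for 10 genes on which *ecl3*Δ replicates 1 and 3 stood apart from replicate 2, with *ecl3*Δ (red) left and WT (blue) right; circles, squares and triangles are replicates 1, 2 and 3 and the line is the mean. For *prz1* the *ecl3*Δ libraries lie at 2502, 17899 and 4440, on both sides of the WT at 10752 to 13734, and *str1* shows the opposite order.

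The genes farthest from the WT in a given culture also included *nce103*, *pat1* and SPAC1039.02, and *met17* and *zrt1* were named as members of gene lists. *nce103*, a carbonic anhydrase gene, had 8550, 4119 and 6950 in *ecl3*Δ and 4378, 4900 and 4467 in the WT, above the WT in replicates 1 and 3 and below it in replicate 2. *met17*, which encodes homocysteine synthase, had 5663, 3326 and 4932 in *ecl3*Δ and 3853, 3320 and 3181 in the WT. The zinc transporter gene *zrt1* had 3287, 8298 and 7282 in *ecl3*Δ and 9519, 8618 and 7886 in the WT, low in replicate 1. *pat1*, the kinase gene that holds back meiosis, was high in replicate 2, with 553, 911 and 479 in *ecl3*Δ and 559, 555 and 487 in the WT. SPAC1039.02, a predicted extracellular nucleotidase gene that the paper counts as phosphate-mobilizing, had 4137, 1702 and 4088 in *ecl3*Δ and 2264, 2559 and 2359 in the WT.

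Among coding genes with at least 100 normalized reads on average in the higher strain, the largest fold changes included genes that varied widely among the libraries. *gdt1* had 1301, 2087 and 71.6 in *ecl3*Δ and 876, 6.16 and 34 in the WT, a log2 fold change of 1.93 ± 1.41. SPAC750.01, an aldo-keto reductase family gene, had 44.8, 2359 and 20.8 in *ecl3*Δ and 616, 17.2 and 23.4 in the WT, or 1.89 ± 1.72, and its estimate turned to -2.67 without *ecl3*Δ replicate 2. For *gdt1* the level came from *ecl3*Δ replicates 1 and 2 and WT replicate 1, and for SPAC750.01 from *ecl3*Δ replicate 2 and WT replicate 1. On the lower side *ftm2* had 11.6, 118 and 36.9 in *ecl3*Δ and 121, 199 and 157 in the WT, or -1.53 ± 0.65. SPBPB2B2.18 had 9.97, 249 and 30 in *ecl3*Δ and 72, 391 and 272 in the WT, and SPAC977.18 had 40.7, 1941 and 293 in *ecl3*Δ and 1135, 1829 and 1898 in the WT. Of the 51-base windows of these last 3 genes, 75.0, 94.0 and 84.0% recur elsewhere in the genome, so their counts can hold reads of near-identical copies and are uncertain. For SPAC750.01 the share of such windows was 32.5%, and for *gdt1* it was 0%.

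Noncoding genes showed no call either. Of the 1142 lncRNA genes kept, 516 had a log2 fold change above 0 and 626 one below, with a median of -0.02. All WT libraries were exceeded by 54 (4.73%) and undercut by 56 (4.90%), near the 3.83% and 5.51% of coding genes. Among all 1211 noncoding genes 30 were higher and 29 lower at an unadjusted p under 0.05 in the edgeR test, beside 101 each way among the 4989 coding genes. Of the 43 snRNA and snoRNA genes, 29 had a log2 fold change below 0, with a median of -0.13. All WT libraries were undercut by 8 of them (18.6%, against 5.51% of coding genes). By culture, the medians of these snRNA and snoRNA genes were 0.02, -0.28 and -0.09 in *ecl3*Δ replicates 1, 2 and 3. *sno52*, a small nucleolar RNA gene, had 845, 800 and 844 in *ecl3*Δ and 1013, 1014 and 984 in the WT, or -0.27 ± 0.06, with an edgeR adjusted p of 0.824. Their summed share of the counts was 0.0391, 0.0380 and 0.0387% in *ecl3*Δ and 0.0415, 0.0417 and 0.0436% in the WT, and such RNAs are largely lost in the selection of polyadenylated RNA that these libraries used.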

How the data were processed

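Per the paper's methods and the processing notes, the authors selected poly(A)+ RNA for strand-specific paired-end libraries, mapped reads to the ASM294v2 genome with HISAT2 2.1.0 and counted reads per gene with HTSeq 0.10.0. The deposited table holds raw counts for 6988 genes, and 0 of its columns were left unmatched to a sample. The authors' DESeq2 tables of fold changes and p-values were not used here.

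Only the 6 *ecl3*Δ and WT libraries were fitted. After filterByExpr and TMM scaling, each gene was fitted by the quasi-likelihood method in edgeR 4.0.16 (R 4.3.3, limma 3.58.1), and p-values were adjusted by Benjamini-Hochberg over all genes kept. Standard errors came from the model weights times the variance edgeR fitted. For a call, the adjusted p had to be 0.05 or less, the change 2-fold or more and the mean normalized count 100 or more in the higher strain. A normalized count is the count divided by the TMM-scaled library size, times the mean of those sizes. For distances, log2 CPM values were computed at a prior count of 2. The functions were tested on simulated counts.

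Names came from RefSeq for ASM294v3, which matched 6836 genes. That build differs from the authors', so coordinates and sequences are not printed, and it served only for names, gene order and the share of 51-base windows that recur. The rule for named genes took the *ecl* genes and their neighbours, the 8 coding genes on each side with the smallest p among those not overlapping, the 5 largest changes on each side, the 6 farthest genes of each culture on each side, up to 4 members of each list by p, the *PHO* regulon and 9 mating genes. Some genes that the rule selects are not reported here. A few genes from the fit without *ecl3*Δ replicate 2 were picked with their values in view, as said where they appear. Rule, lists and comparison were chosen with earlier results of these data known. After the file was opened, the product patterns for synthetase and RNA polymerase genes were corrected to the RefSeq spelling and 3 misplaced symbols were dropped from lists. Members of a list that were filtered out are not counted. Alternatives were DESeq2 1.42.0, RLE factors, total counts, no filter, all 9 libraries, the replicate number as a block, other limits and each library left out. Replicates were separate cultures of 1 strain each.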

Additional observations from a re-analysis of the deposited data

How the results depend on the processing

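Coding genes called higher, coding genes called lower and noncoding genes called numbered 0 under every alternative that kept all 6 libraries. With 1 library left out they ranged from 0 to 2, from 0 to 39 and from 0 to 20, and every count above 0 came from leaving out *ecl3*Δ replicate 2. The counts at an unadjusted p under 0.05 (101 higher and 101 lower) became 30 and 36 with all 9 libraries in the fit and 183 and 184 with the replicate block, and ranged from 28 to 488 and from 38 to 717 with 1 library left out. Whether the replicate numbers pair the samples was not settled. Same-numbered deviations from the strain means correlated at 0.36, -0.058 and 0.27 for *ecl3*Δ replicates 1, 2 and 3. The largest correlations of these with a WT library of another number were -0.19, 0.12 and 0.37. The replicate block gave 0 calls. Over all alternatives the mean distance from the WT was 0.116 to 0.134 for *ecl3*Δ replicate 1, 0.0688 to 0.0800 for replicate 2 and 0.0945 to 0.106 for replicate 3, so the order of the cultures held. With 1 library left out, the log2 fold changes of 7 named genes changed sign: *ecl2* ranged from -0.25 to 0.065, SPAC750.01 from -2.67 to 5.27, *tgp1* from -0.23 to 0.024, *pho1* from -0.050 to 0.11, *mam2* from -1.02 to 0.0040, *cmt2* from -3.34 to 0.28 and *pat1* from -0.043 to 0.46. Of these, SPAC750.01 was negative only without *ecl3*Δ replicate 2. The cause of these changes was not tested. The precision is limited by 3 cultures a strain and by the spread among the *ecl3*Δ cultures, and a difference that missed the threshold is not shown to be absent.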
